A study of Mus musculus with 18 samples.

Results

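The genes described here encode the carriers, channels and pumps that move salt, water, acid and base across cell membranes. Given the families, the members were taken by symbol, as protein-coding genes of the RefSeq table for GRCm38 whose symbol begins with Slc4a, Slc5a, Slc9a, Slc12a, Slc26a, Slc34a, Scnn1, Atp1a, Atp1b, Wnk, Clcn or Aqp followed by a number or letter. This gave 93 of 21887 protein-coding genes on chromosomes. A few members are not transporters: the WNK kinases regulate them, Slc9a3r1 and Slc9a3r2 encode scaffold proteins that bind sodium-hydrogen exchangers, and Slc4a1ap encodes a protein named for binding the anion exchanger Slc4a1. BMAL1 binding was mapped by ChIP-seq, in which DNA bound by a protein is pulled down with an antibody, here an affinity-purified chicken antibody to mouse BMAL1, and sequenced. The liver, kidney and heart groups shared strain (C57BL/6), genotype (wild type), age (3 to 6 months), a schedule of 12 h light and 12 h dark, and the time of collection, ZT06, in the middle of the light phase. Each tissue had 3 ChIP and 3 input libraries from 3 mice, and all tissues came from the same mice.

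BMAL1 pairs with CLOCK to form the activator of the circadian clock, which binds E-boxes, short DNA sites with the core CACGTG, and drives rhythmic transcription. Excretion of sodium, potassium and water by the kidney follows a daily rhythm, and genes for the sodium-hydrogen exchanger NHE3 and for the alpha subunit of the epithelial sodium channel have been linked to clock proteins in earlier work. Sodium leaves the tubule lumen through apical carriers and channels, is pumped out of the cell by the Na,K-ATPase, and is accompanied by chloride, bicarbonate, phosphate or sugar on dedicated carriers. Liver and heart use other members of the same families for bile, volume and pH control.

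Peaks had been called once per tissue on the pooled replicates, which gave 4813 peaks for liver, 4034 for kidney and 2519 for heart. Each peak has a whole-number score, here used only to rank peaks within its list, and ranks run from 1 for the highest score. No value per mouse was used, so the numbers below carry no error between animals and none of the differences between tissues was tested. Read depth is unknown. A longer list can hold weaker peaks, so a gene with a peak in one list and none in another may differ in the sensitivity of the list or in binding, which cannot be told apart. For the heart input libraries the titles and the tissue field say heart while the source field says kidney. Every heart value rests on a list made with them, and no heart list without them was analysed. RNA was not measured, so the labelled tissues were not checked against expressed markers. The 7 clock genes used as a check (Nr1d1, Nr1d2, Per1, Per2, Dbp, Tef and Ciart) each had a region common to all 3 lists.

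A peak was assigned to a gene when its centre lay inside the annotated gene or within 10 kb of either end. Of the 93 transport genes, 43 had such a peak in at least 1 tissue (46.2%), against 30.7% of all protein-coding genes. Liver peaks lay at 26 members (28.0%, against 18.1% of all genes) and kidney peaks also at 26 (28.0%, against 18.0%). Heart peaks lay at 11 members (11.8%), near the 11.5% of all genes. Liver and kidney thus marked the same number of members, and 13 members had peaks of both (14.0%, against 9.78% of all genes). Multiple peaks of one tissue lay at 4 members in liver (4.30%, against 4.10% of all genes), 6 in kidney (6.45%, against 3.53%) and 2 in heart (2.15%, against 1.24%).

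Members had a median length of 30.7 kb against 17.2 kb for all genes, and the part of gene length in these shares was not tested. Among members, the 43 with a peak had a median length of 25.5 kb and the 50 without one 34.9 kb. Per megabase of gene and flank, members held 4.33 liver, 4.77 kidney and 1.88 heart peaks, against 3.01, 2.72 and 1.67 for all protein-coding genes. Within 5 kb of a listed start site, a window of equal size for each site, 8 of the 70 members with one had a liver peak (11.4%, against 9.39%). The same window held a kidney peak at 12 members (17.1%, against 10.6%) and a heart peak at 5 (7.14%, against 5.88%). With the liver and kidney lists cut to the length of the heart list, members with a liver peak were 15 (16.1%, against 11.5%) and members with a kidney peak 14 (15.1%, against 12.8%). Among the better-scoring 50% of peaks, those of liver lay at 14 members (15.1%, against 11.0%), those of kidney at 12 (12.9%, against 10.7%) and those of heart at 8 (8.60%, against 7.15%). In liver and kidney the gap to all genes was smaller for these stronger peaks than for the full lists.

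**Figure D1:**
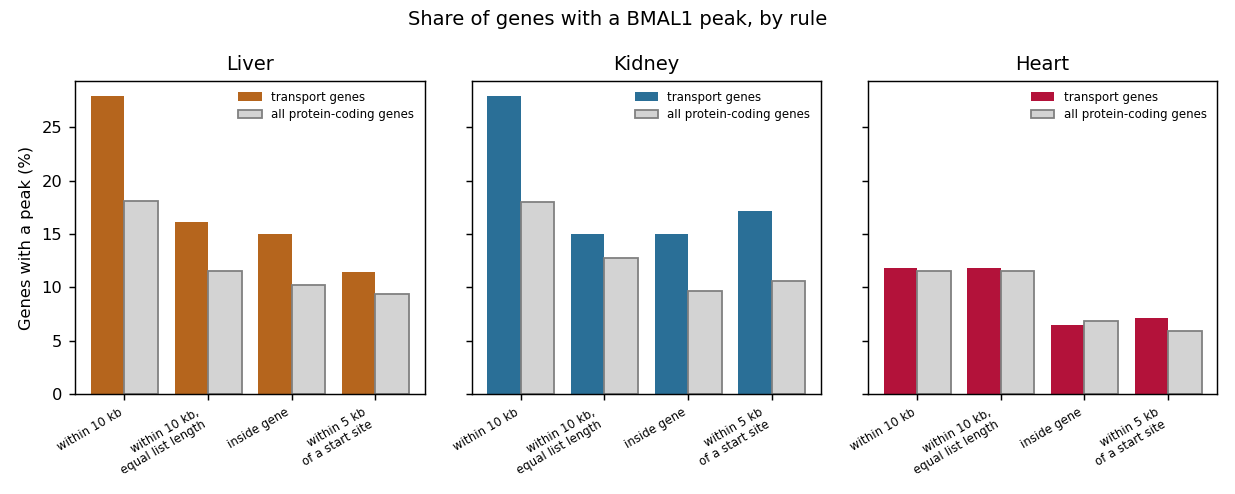
Bars give the percentage of the transport genes (coloured) and of all protein-coding genes (grey) with a BMAL1 peak under 4 rules of assignment, 1 panel per tissue. In liver and kidney the coloured bar is the higher under each rule, from 28.0% against 18.1% in liver within 10 kb; in heart the bars lie close together, 11.8% against 11.5% within 10 kb, and inside the gene the grey bar is the higher.

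There were 30 in liver (0.623% of the list, exact Clopper-Pearson 95% interval 0.421 to 0.889%, counting error only), 33 in kidney (0.818%, 0.564 to 1.15%) and 13 in heart (0.516%, 0.275 to 0.881%). Their median score was 39 in liver, where the median of the list was 40. It was 26 in kidney against 28, and 29 in heart against 25. Scores at members ran from 18 to 144 in liver, from 14 to 76 in kidney and from 20 to 87 in heart. In the upper 50% of their list lay 15 of the 30 liver, 14 of the 33 kidney and 10 of the 13 heart peaks. In the top 10% of a list lay 3 of the 30 liver peaks, 1 of the 33 kidney peaks and 1 of the 13 heart peaks. These 5 peaks belonged to Clcn2 (2 in liver, 1 in kidney), Slc26a2 in liver and Wnk2 in heart.

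**Figure D2:**
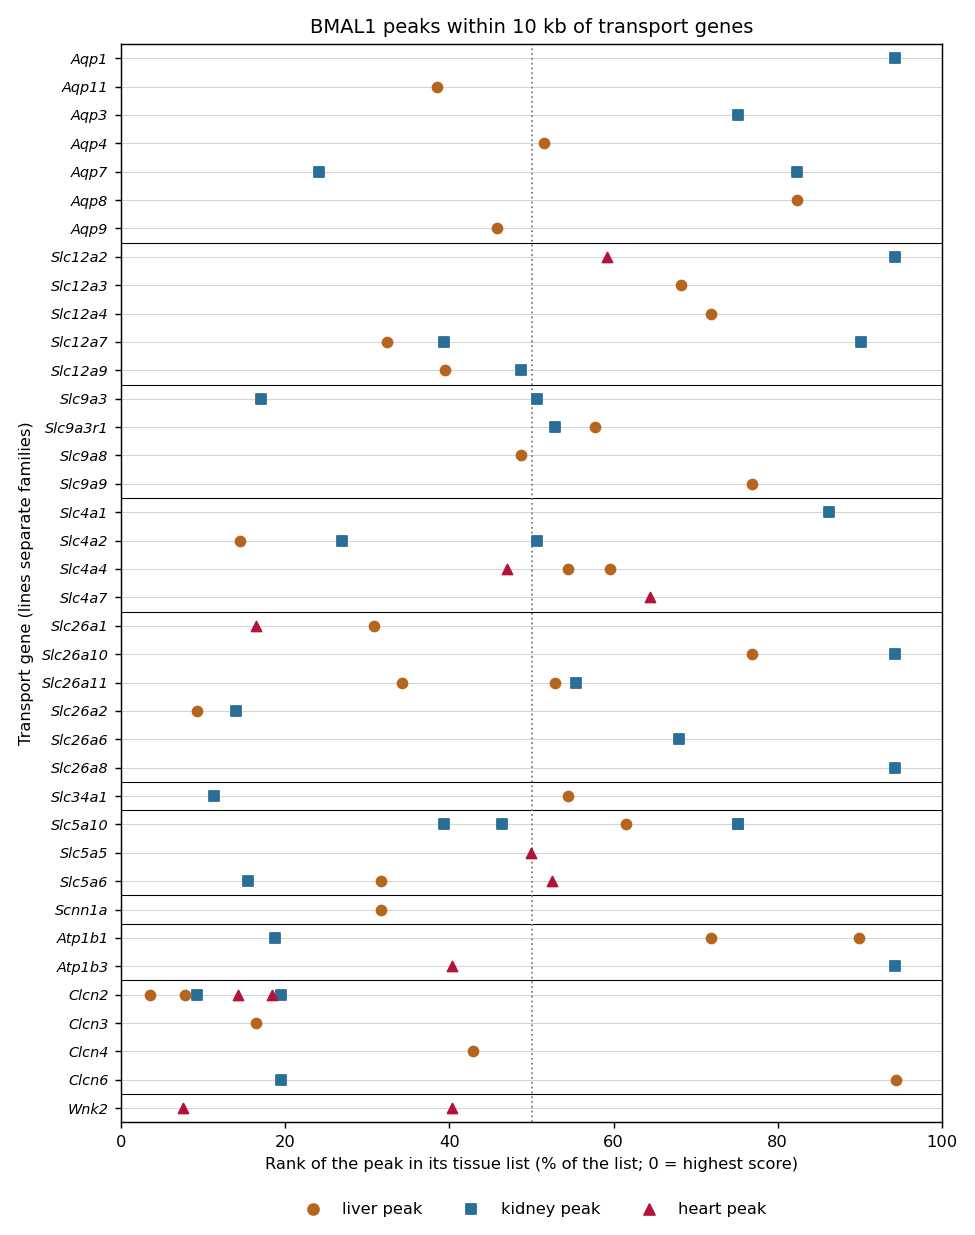
Each point is 1 peak within 10 kb of a transport gene, placed by its rank in its tissue's list as a percentage of that list (0 is the highest score; the dotted line marks 50%), for the genes with a peak that are named here; lines separate gene families. The points spread over the whole range, on both sides of the dotted line, with Clcn2 far to the left in all 3 tissues.

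Overlapping peaks of different tissues were merged into regions, and 62 regions lay at members. Of these, 49 had a peak in 1 tissue (79.0%, against 79.5% of all 9005 regions), 11 in 2 tissues (17.7%, against 14.7%) and 2 in all 3 (3.23%, against 5.76%). Of the 49, 23 were in the kidney list (37.1% of the 62, against 25.8% of all regions), 19 in the liver list (30.6%, against 35.5%) and 7 in the heart list (11.3%, against 18.2%). The share of regions in 1 tissue was thus close to that elsewhere, with kidney in place of liver as the most frequent tissue. Single genes held several of the 23, with 4 at Slc5a10, 2 at Aqp7 and 2 at Slc9a3. Counted by member the order was the reverse. Peaks of liver alone lay at 11 members (11.8%, against 7.00% of all genes) and of kidney alone at 10 (10.8%, against 6.68%). A region shared by at least 2 tissues lay at 12 members (12.9%, against 9.56% of all genes), among them Clcn3, whose region has a liver peak within 10 kb of the gene and a heart peak just beyond.

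Clcn2 and Slc5a6 were the 2 members with peaks of all 3 tissues (2.15%, against 4.35% of all genes), and both had a region common to all 3 (2.15%, against 3.09%). Another 16 members had peaks of exactly 2 tissues (17.2%, against 8.31%). Clcn2 encodes ClC-2, a chloride channel of the plasma membrane. Its common region lay inside the gene, 269 bp after the nearest listed start site in liver (chr16:20716246-20716487), with scores of 144 in liver (rank 171), 76 in kidney (rank 373) and 51 in heart (rank 464). A second site just upstream of Clcn2 had a kidney peak of score 52 (rank 787) and a heart peak of score 60 (rank 359), both 48 to 49 bp beyond the gene and nearest to Polr2h, which encodes an RNA polymerase subunit. The second liver peak scored 109 (rank 371) and lay inside the gene at chr16:20717377-20717618, without overlapping the kidney peak at chr16:20717702-20717889. Each tissue thus had 2 peaks at Clcn2, and those farther upstream did not overlap between liver and the other tissues. Their centres lay within 500 bp, so this depends on the rule of sharing. With peaks joined by centres within 500 bp, 3 regions at members were common to all 3 tissues, against 2 by overlap.

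Slc5a6 encodes the sodium-dependent multivitamin transporter, which carries biotin and pantothenate into cells. Its common region lay over the start site, and the peak centres followed that site by 92 bp (liver), 76 bp (kidney) and 66 bp (heart). The kidney peak was the better placed in its list, with score 59 (rank 622), against score 55 (rank 1522) in liver and score 24 (rank 1321) in heart.

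Peaks overlapped promoter windows of 9 members, and promoters of 5 from the RefSeq table (GRCm38.p6) are printed. Of these, 4 were chosen because they hold CACGTG inside a peak, and Slc5a6 because it was bound in all 3 tissues. The printed Slc5a6 run holds no CACGTG. Its peaks are centred after the start site, however, and most of each lies beyond the run and beyond the 50 bases after the start. That part was not searched. Each run gives the 250 bases before the start site, 5′ to 3′ on the gene's strand, with CACGTG in capitals.
Clcn6 (chr4:148038814-148039063, minus strand): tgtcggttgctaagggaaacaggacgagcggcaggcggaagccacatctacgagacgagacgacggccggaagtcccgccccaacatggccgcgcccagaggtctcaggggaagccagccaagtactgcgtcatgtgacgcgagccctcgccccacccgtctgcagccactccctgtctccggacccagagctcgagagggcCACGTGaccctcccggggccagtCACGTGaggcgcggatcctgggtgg
Slc12a7 (chr13:73763447-73763696, plus strand): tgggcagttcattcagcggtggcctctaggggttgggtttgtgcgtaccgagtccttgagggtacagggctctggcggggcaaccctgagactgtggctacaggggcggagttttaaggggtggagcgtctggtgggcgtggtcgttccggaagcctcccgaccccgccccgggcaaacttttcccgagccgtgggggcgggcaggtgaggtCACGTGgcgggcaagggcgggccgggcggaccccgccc
Aqp8 (chr7:123462044-123462293, plus strand): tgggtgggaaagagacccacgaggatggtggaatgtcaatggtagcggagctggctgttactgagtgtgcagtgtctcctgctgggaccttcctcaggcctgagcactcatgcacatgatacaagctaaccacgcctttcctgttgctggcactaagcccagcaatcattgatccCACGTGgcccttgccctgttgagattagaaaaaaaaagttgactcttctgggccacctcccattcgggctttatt
Atp1b3 (chr9:96363716-96363965, minus strand): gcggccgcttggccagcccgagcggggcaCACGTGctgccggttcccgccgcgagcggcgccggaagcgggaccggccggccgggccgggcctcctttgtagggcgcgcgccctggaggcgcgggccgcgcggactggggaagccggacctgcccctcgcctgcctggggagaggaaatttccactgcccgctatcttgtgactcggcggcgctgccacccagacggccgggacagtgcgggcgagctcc
Slc5a6 (chr5:31048080-31048329, minus strand): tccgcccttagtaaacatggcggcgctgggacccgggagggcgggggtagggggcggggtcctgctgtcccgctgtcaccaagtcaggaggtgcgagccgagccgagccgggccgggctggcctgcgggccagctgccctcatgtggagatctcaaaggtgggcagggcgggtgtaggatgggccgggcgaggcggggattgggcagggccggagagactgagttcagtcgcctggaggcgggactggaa

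Counting the start site as 0 and bases before it as negative, the first base of CACGTG lay at -48 and at -25 in Clcn6, at -38 in Slc12a7, at -75 in Aqp8 and at -221 in Atp1b3. The Clcn6 sites both lay inside its kidney peak, and the Slc12a7 site inside its liver and its kidney peak. The site of Aqp8 lay in its liver peak and that of Atp1b3 in its kidney peak. Promoter windows run from 250 bases before to 50 bases after a start site, and 70 members had 88 of them. A peak of any tissue overlapped 12 windows of 9 members (13.6%, against 8.38% of 21263 windows of all protein-coding genes): Aqp8, Atp1b3, Clcn4, Clcn6, Slc12a7, Slc26a6, Slc5a10, Slc5a6 and Slc9a3r1. CACGTG, which reads the same on both strands, was in 5 of the 12 (41.7%), with the Slc12a7 site counted in 2 overlapping windows. It was in 17.0% of all 88 member windows, against 7.84% of the windows of all genes, and among all windows overlapped by a peak in 31.9%. Another 10 member windows held CACGTG with no peak over them (13.2% of 76, against 5.63% of all windows with no peak), among them those of Aqp2, Slc5a1 and Slc9a3. By tissue, a liver peak overlapped 6 member windows (6.82%, against 4.22% of all windows), a kidney peak 8 (9.09%, against 5.54%) and a heart peak 2 (2.27%, against 2.82%). A match to these letters is a description of the sequence and does not mark a bound site.

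Some peaks assigned to members lay at the promoter of a neighbouring gene. A liver and a kidney peak assigned to Slc12a9 covered a window of Trip6 in which CACGTG began at -206, inside both peaks, and at -48, inside the liver peak. The pair assigned to Slc26a11 covered a window of Sgsh with CACGTG at -29, and a kidney peak assigned to Slc4a2 covered one of Tmub1 with CACGTG at -81. A window of Polr2h, with CACGTG at 23 after its start, was overlapped by peaks of all 3 tissues assigned to Clcn2, and the site lay inside those of kidney and heart. Windows of Fam83g (Slc5a10), Rnf213 (Slc26a11), and Nat9 and Tmem104 (Slc9a3r1), each overlapped by a peak assigned to the member in brackets, held no CACGTG. The member was the nearest protein-coding gene, alone or in a tie, for 20 of the 30 liver peaks, 27 of the 33 kidney peaks and 9 of the 13 heart peaks. Counting such peaks alone, 18 members had a liver peak (19.4%, against 13.7% of all genes), 21 a kidney peak (22.6%, against 13.3%) and 8 a heart peak (8.60%, against 8.90%).

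Cation-chloride cotransporters take up or release chloride together with sodium or potassium. Of the 9 Slc12a genes, 4 had a liver peak (44.4%, against 18.1% of all genes), 4 a kidney peak (44.4%, against 18.0%) and 1 a heart peak (11.1%, against 11.5%). Slc12a7, which encodes the potassium-chloride cotransporter KCC4, had a liver peak of score 54 (rank 1557) and a kidney peak of score 33 (rank 1588) centred within 4 bp of a start site, and a further kidney peak of score 15 (rank 3635) 7679 bp before that site. At Slc12a9, a liver peak of score 47 (rank 1896) and a kidney peak of score 28 (rank 1966) overlapped just beyond the gene's far end, at the Trip6 window described above. Slc12a2 (NKCC1, the widely expressed sodium-potassium-chloride cotransporter) had overlapping kidney and heart peaks at one gene end, with scores of 14 (rank 3802) and 22 (rank 1491). Slc12a3 (NCC, the thiazide-sensitive carrier of the distal convoluted tubule) had a liver peak of score 29 (rank 3282) inside the gene and no kidney or heart peak within 10 kb. Its nearest kidney and heart peaks lay 21.3 kb away. Slc12a4 (KCC1) had a liver peak of score 27, nearest to Lcat, while Slc12a1, Slc12a5 and Slc12a8 had none.

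Sodium-hydrogen exchangers extrude acid in exchange for sodium. Slc9a3 (NHE3, the apical exchanger of the proximal tubule) had a pair of kidney peaks inside the gene, 22048 and 22754 bp after the nearest listed start site, and no liver or heart peak. The stronger, at chr13:74144074-74144261, scored 56 (rank 686 of 4034) and the weaker 27 (rank 2045). Slc9a3r1 (NHERF1, the scaffold that holds NHE3 and the phosphate carrier at the brush border) had a liver peak of score 34 (rank 2780) 43 bp after the start site. Its kidney peak, of score 26 (rank 2132), lay 6.30 kb beyond the gene, nearest to Nat9. Of the exchangers of internal membranes, Slc9a8 had a liver peak of score 40 and Slc9a9 a liver peak of score 25. Slc9a2, Slc9a4, Slc9a5, Slc9a7 and Slc9a3r2 had none. A heart peak lay at 0 of the 11 Slc9a members, against 11.5% of all genes, a share that would give about 1.

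Bicarbonate carriers of the Slc4a family regulate pH. Slc4a2 (AE2, an exchanger of chloride for bicarbonate found in many epithelia) had a region shared by liver, with score 83 (rank 697), and kidney, with score 43 (rank 1083), 2305 and 2350 bp after the start site. Slc4a4 (NBCe1, the basolateral exit path for bicarbonate in the proximal tubule) had no kidney peak. Its 2 liver peaks, of scores 36 (rank 2621) and 33 (rank 2869), lay 42714 and 41127 bp after the nearest listed start site, and the first overlapped a heart peak of score 26 (rank 1184). Slc4a1 (AE1, of red cells and acid-secreting intercalated cells) had a kidney peak of score 16 (rank 3480) 4.20 kb outside the gene, and Slc4a7 (NBCn1) a heart peak of score 20 (rank 1624). Slc4a10, Slc4a11, Slc4a1ap, Slc4a3, Slc4a5, Slc4a8 and Slc4a9 had none.

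Anion exchangers of the Slc26a family carry sulfate, chloride, oxalate and other anions. Slc26a2, a sulfate carrier, had overlapping liver and kidney peaks 12 and 17 bp outside one gene end. It was the second-ranking member in liver with score 102 (rank 443) and the third in kidney with score 62 (rank 563), and it had no heart peak. Slc26a1, another sulfate carrier, shared a region between liver, with score 56 (rank 1480), and heart, with score 55 (rank 414), beyond its far end and nearest to Idua. Slc26a11 had a liver peak of score 52 (rank 1645) overlapping a kidney peak of score 25 (rank 2237) at the end it shares with Sgsh, and a second liver peak of score 37 farther off. Slc26a6, an exchanger of chloride and oxalate, had a kidney peak of score 21 (rank 2742) 57 bp after the start site. Slc26a10 had a liver peak of score 25 and a kidney peak of score 14 at different sites nearest to B4galnt1, and Slc26a8 a kidney peak of score 14. Slc26a3, Slc26a4, Slc26a5, Slc26a7 and Slc26a9 had none.

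Phosphate and sugar carriers bring solutes back from the tubule lumen with sodium. Slc34a1 (NaPi-IIa, the main brush-border phosphate carrier) had overlapping kidney and liver peaks 8.83 and 8.80 kb upstream, nearest to Rgs14. The kidney peak scored 69 (rank 458, the second-ranking member in kidney) and the liver peak 36 (rank 2621), so the same site stood in the top 11.4% of one list and below the middle of the other. Slc34a2 and Slc34a3 had none. Of the 13 Slc5a genes, 3 had a peak (23.1%, against 30.7% of all genes). Besides Slc5a6, Slc5a10 (SGLT5, a kidney carrier of mannose and fructose) had 4 kidney peaks and a liver peak of score 32 at another site. Of the kidney peaks, 2 of score 19 lay at its start sites and 2 of scores 33 and 29 inside the gene. The latter 2 and the liver peak were centred inside Fam83g as well. Slc5a5, the iodide carrier, had a heart peak of score 25 that lay 4508 bp before its start site. The glucose carriers Slc5a1 and Slc5a2 had none, nor had Slc5a11, Slc5a12, Slc5a3, Slc5a4a, Slc5a4b, Slc5a7, Slc5a8 and Slc5a9.

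The epithelial sodium channel sets final sodium recovery in the collecting duct. Scnn1a, its alpha subunit, had a liver peak of score 55 (rank 1522) 1.55 kb outside the gene and nearest to Ltbr. The nearest kidney peak lay 35.5 kb away. Scnn1b and Scnn1g, the other subunits, had no peak.

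The Na,K-ATPase is the basolateral pump that moves sodium out of the cell and so drives the carriers coupled to sodium. Among its beta subunits, Atp1b1 had a kidney peak of score 53 (rank 758) 2735 bp before the start site. Its 2 liver peaks lay elsewhere, one of score 20 (rank 4329) inside the gene and one of score 27 (rank 3458) beyond its far end, nearest to Nme7. Atp1b3 had a heart peak of score 29 (rank 1014) 48 bp before one start site and a kidney peak of score 14 (rank 3802) 156 bp before another. Atp1b2 and Atp1b4 had none. At neither beta subunit did peaks of different tissues overlap.

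Chloride channels and exchangers of the Clcn family had a peak at 6 of 9 genes (66.7%, against 30.7% of all genes), 4 in liver (44.4%, against 18.1%), 4 in kidney (44.4%, against 18.0%) and 2 in heart (22.2%, against 11.5%). Clcn6 (a chloride-proton exchanger of late endosomes) had a kidney peak of score 52 (rank 787) centred 16 bp before its start site, over both CACGTG sites printed above, and a liver peak of score 18 (rank 4543) deep inside the gene. Clcn4, an endosomal exchanger, had a liver peak of score 44 (rank 2062) 46 bp before a start site. Clcn3, another, had a liver peak of score 78 (rank 788) that lay 9.98 kb from the gene and nearest to Hpf1. This was the member just inside the distance limit; its overlapping heart peak, at 10.02 kb, fell just outside, as did a liver peak 10.1 kb from Wnk4. Clcn1, Clcn5 and Clcn7 had none.

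WNK kinases sense chloride and switch the Slc12a cotransporters. Wnk2 had 2 heart peaks inside the gene, of scores 87 (rank 189 of 2519) and 29 (rank 1014), and no liver or kidney peak. The first was the highest-scoring heart peak at any member. Wnk1, Wnk3 and Wnk4 had no peak within 10 kb.

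Aquaporins are channels for water, and some also pass glycerol. Of the 11 genes, 4 had a peak in the liver list alone (36.4%, against 7.00% of all genes) and 3 in the kidney list alone (27.3%, against 6.68%). None had peaks of more than 1 list, against 12.7% of all genes, or a heart peak, against 11.5%, in a family too small to read a count of 0. The liver peaks were at Aqp11, with score 48 (rank 1849), Aqp9 with score 42 (rank 2202), Aqp4 with score 38 (rank 2481) and Aqp8 with score 23 (rank 3961). Aqp9 is the glycerol entry path of hepatocytes and Aqp8 a water channel of hepatocytes. Aqp4, in contrast, is among the collecting duct genes counted below, and its peak was in liver and not in kidney. No place is given here for Aqp11, the best-ranked of the 4. Whether the lists match the tissues in which these genes act was not tested. The Aqp8 peak lay 188 bp before the start site and that of Aqp9 inside the gene. The kidney peaks were at Aqp7, with scores 46 (rank 972) and 17 (rank 3323), Aqp3 with score 19 (rank 3031) and Aqp1 with score 14 (rank 3802). Aqp7 passes glycerol and is found in the proximal tubule and in fat, Aqp3 is basolateral in the collecting duct and Aqp1 is the main water channel of the proximal tubule. The Aqp3 and Aqp1 peaks stood at 75.1 and 94.2% of the kidney list, counted from the highest score. Aqp12, Aqp2, Aqp5 and Aqp6 had none.

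**Figure D3:**
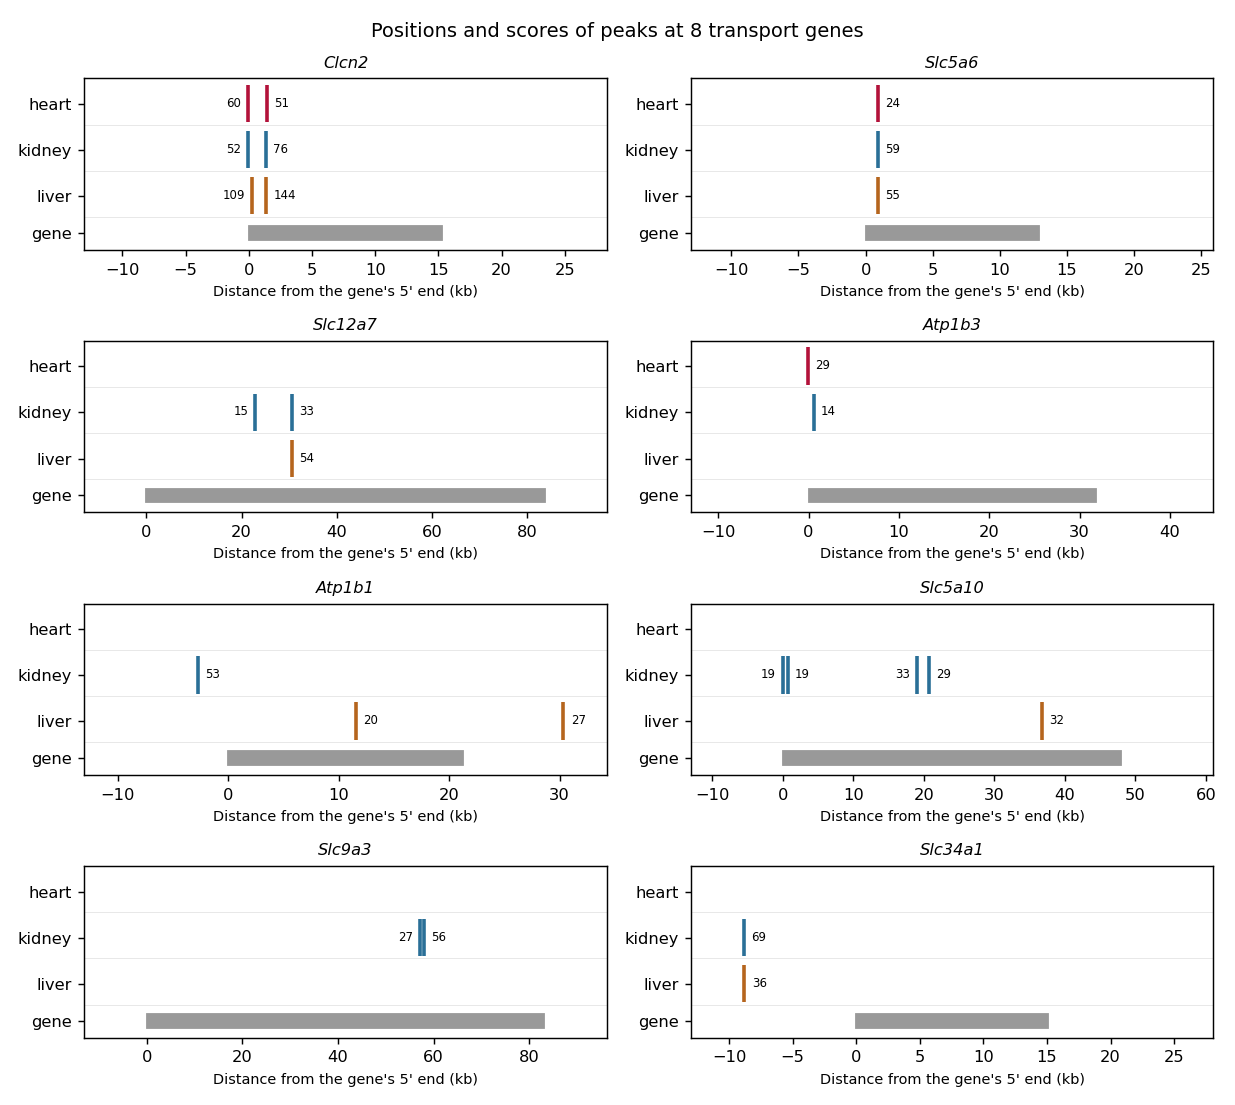
Each panel shows 1 gene as a grey bar, with the centres of liver, kidney and heart peaks as vertical lines at their distance from the gene's 5′ end in kb and the peak's score beside each line. At Clcn2 and Slc5a6 the lines of the 3 tissues stand at or close to the same place, at Slc34a1 those of liver and kidney coincide, and at Atp1b1, Atp1b3 and Slc5a10 they stand at different places.

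Counted over members, 18 had peaks of at least 2 tissues (19.4%, against 12.7% of all genes), and 7 of these 18 had no region shared between tissues (7.53% of the 93, against 3.11%). Among the 7 were Atp1b1, Atp1b3, Clcn6, Slc26a10, Slc5a10 and Slc9a3r1. A peak in the liver list and no other was found at 11 members (11.8%, against 7.00%), in the kidney list and no other at 10 (10.8%, against 6.68%), and in the heart list and no other at 4 (4.30%, against 4.30%). These counts depend on list length: with all lists cut to the length of the heart list they were 7, 7 and 8. The order of the tissues thus turned, but the matching shares of all genes at equal list lengths are not given. The turn therefore cannot be read as particular to the members. Among the 10 for kidney were Aqp1, Aqp3, Aqp7, Slc26a6, Slc26a8, Slc4a1 and Slc9a3. The 11 for liver were Aqp11, Aqp4, Aqp8, Aqp9, Clcn3, Clcn4, Scnn1a, Slc12a3, Slc12a4, Slc9a8 and Slc9a9, and among the 4 for heart were Slc4a7, Slc5a5 and Wnk2.

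Peaks at members lay both at start sites and deep in genes. The centre was inside the member for 16 of 30 liver peaks, 18 of 33 kidney peaks and 7 of 13 heart peaks. Such peaks lay at 14 members in liver (15.1%, against 10.2% of all genes), 14 in kidney (15.1%, against 9.65%) and 6 in heart (6.45%, against 6.83%). Where a start site was listed, the centre lay within 1 kb of it for 7 of 25 liver peaks, 9 of 26 kidney peaks and 3 of 10 heart peaks. The shares of all peaks of each list that lie inside genes or within 1 kb of a start site are not given here. Whether a peak inside a gene lay in an exon or an intron was not determined.

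**Figure D4:**
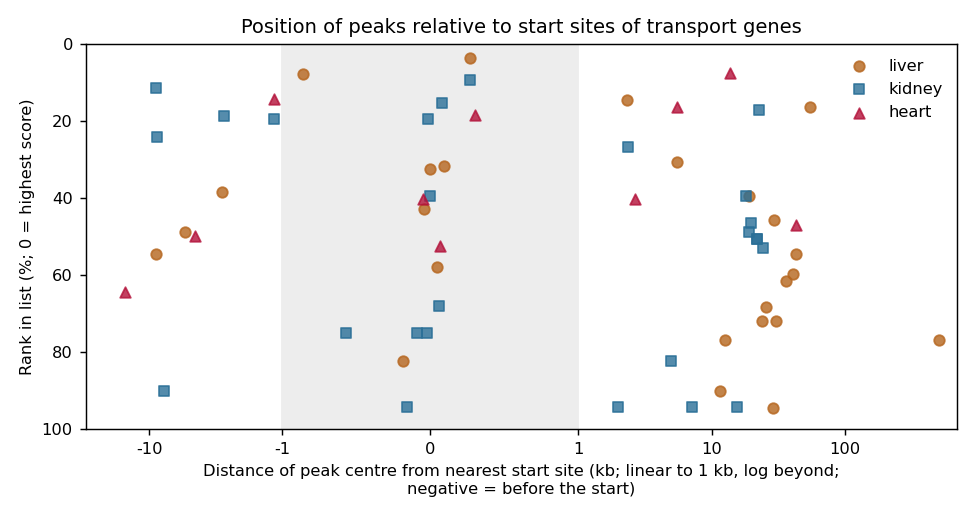
Each point is a peak at a transport gene with a listed start site, placed by the distance of its centre from the nearest such site (kb, linear to 1 kb and logarithmic beyond, negative before the start) and by its rank in its list as a percentage. Within the shaded 1 kb band lie 7 liver, 9 kidney and 3 heart peaks, at ranks from near the top, as at Clcn2, to near the bottom, as for the kidney peak of Atp1b3.

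Transport genes known for their place in the nephron were counted as 26 genes in 3 lists. These lists were chosen by hand with earlier results of these data known, so their shares are a description only. Aqp7 and Slc5a10, placed in the kidney above, are not in them. A kidney peak lay at 8 of them (30.8%), a liver peak at 5 (19.2%) and a heart peak at 2 (7.69%), against 18.0, 18.1 and 11.5% of all genes. Kidney peaks were at 4 of 10 proximal tubule genes (Aqp1, Slc26a6, Slc34a1 and Slc9a3), 2 of 6 genes of the thick ascending limb and distal convoluted tubule, and 2 of 10 collecting duct genes (Aqp3 and Slc4a1). Of the 8 in all, Slc34a1 and Slc9a3 had a peak in the upper 50% of the kidney list and the other 6 did not. Several genes central to regulated salt and water recovery had no kidney peak within 10 kb. The nearest kidney peak lay 17.3 kb from Slc12a1 (NKCC2, the carrier of the thick ascending limb), 80.2 kb from Aqp2 (the vasopressin-regulated water channel), 85.0 kb from Wnk4 and 416 kb from Wnk1. It lay 26.9 kb from Scnn1g, 102 kb from Scnn1b, 339 kb from Slc5a2 (the main glucose carrier of the proximal tubule) and 48.0 kb from Slc5a1.

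Regulators and partners of these transporters were counted from a separate list of 32 genes. A peak of any tissue lay at 15 (46.9%, against 30.7% of all genes). Liver and kidney peaks lay at 9 each (28.1%, against 18.1 and 18.0% of all genes) and heart peaks at 5 (15.6%, against 11.5%). Peaks of all 3 tissues lay at Klhl3, Nedd4l and Nr3c2 (9.38%, against 4.35% of all genes), and none of the 32 had a region common to all 3. Nr3c2 encodes the mineralocorticoid receptor, through which aldosterone acts. Its best peaks had score 162 (rank 106) in liver, 31 (rank 1729) in kidney and 77 (rank 237) in heart. A liver and a heart peak of Nr3c2 overlapped, and whether these were the best ones was not determined. Its kidney peak overlapped no peak of another tissue. Klhl3, the adaptor that directs WNK kinases to degradation, had a liver peak of score 75 (rank 865), a best kidney peak of score 36 (rank 1408) and a heart peak of score 29 (rank 1014). Nedd4l, the ubiquitin ligase that removes the sodium channel from the membrane, had 4 liver, 2 kidney and 1 heart peak, none shared between tissues. Stk39 (the kinase SPAK, which WNK kinases activate) had kidney and heart peaks, and Sgk1, the aldosterone-induced kinase, had a liver peak of score 58 (rank 1408). Ren1, the renin gene, had a liver peak of score 122 (rank 270) and no kidney peak. The remaining genes with a peak were Agtr1a, Atp4a and Cul3 in liver, Ace, Car12, Car4 and Kl in kidney, Car14 in liver and kidney, and Kcnj10 in heart. The other 17, among them Umod, Avpr2, Kcnj1, Bsnd, Hsd11b2 and Edn1, had none.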

How the data were processed

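BMAL1 ChIP and input libraries (18 in all) were grouped by title. Per the labels, the authors built 1 peak list per tissue from all its ChIP and input libraries together. Bowtie2, SAMtools, HOMER and the build mm10 are named, per the submitters' processing notes; their roles, versions and settings are not given in the sources used. The meaning of the score the authors deposited is not stated, so it served only for ranks within a list (ties took the best rank). Depth is unknown. mm10 is another name for GRCm38, the build of the RefSeq tables of genes and promoters used for names, ends, start sites and sequences; 70 of the 93 members had a listed start site. Coordinates count from 1.

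Peaks were assigned by centre to genes within 10 kb, and peaks overlapping by at least 1 bp were merged into regions, with Python 3.11.15 and pandas 2.3.3. Counting was tested on simulated data. The lists used hold no values per library, so no test over animals was run, and counts stand beside the share of all protein-coding genes. The members and gene lists were chosen with earlier results of these data known. Members with a peak are named, except a few that are not reported here; those described in full have a region common to all tissues, one of the 5 highest scores in a tissue, or a place in the nephron lists. Alternatives were the window, start sites only, the nearest gene only, the upper 50% of each list, equal list lengths, 2 other rules of sharing, and CANNTG as the motif.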

Additional observations from a re-analysis of the deposited data

How the results depend on the processing

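No paired analysis was possible because the peak lists used, 1 per tissue over all its libraries, hold no values per mouse; leaving out single replicates was not run for the same reason. Counts within 5 kb of either end, by nearest gene only and under the other rules of sharing stayed within 1.5 times the reported ones. Peaks inside the gene only gave 14 members with a liver peak, 14 with a kidney peak and 6 with a heart peak, from 16, 18 and 7 peaks, and 34 regions, 28 of them in 1 tissue. Within 25 kb, heart peaks (21) lay at 20 members, kidney peaks numbered 50, 7 members had peaks in all 3 tissues and 4 regions were common to them. Within 5 kb of a start site, where only 70 members can count, liver, kidney and heart peaks (9, 14 and 6) lay at 8, 12 and 5 members, 4 in liver only and 2 in heart only, in 22 regions, 17 of them in 1 tissue. The upper 50% of each list by score left 14 members with a liver peak and 12 with a kidney peak (15 and 14 peaks), 7 and 6 in that tissue only, 1 member with peaks in all 3 tissues, and 30 regions, 21 in 1 tissue and 1 common to all. Equal list lengths left 15 and 14 members (16 and 18 peaks), 7 in liver only, 7 in kidney only, 8 in heart only, and 36 regions, 26 in 1 tissue. CANNTG was in 11 of the 12 member promoters under a peak. For the 25 kb window the share over all genes is not given, and a wider window can only add peaks to any gene. Nor is it given for the single-tissue, all-tissue and region counts under the alternative rules. These counts thus cannot be read as particular to the members. Depth, which is unknown, limits how far an absent peak can be read.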
